A study of Drosophila melanogaster with 2 samples.

Results

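The genes described here are the respiratory chain and ATP synthase genes of *Drosophila melanogaster*, taken as every row of 2 single-nucleus count tables whose FlyBase symbol begins with ND-, COX, UQCR, ATPsyn or mt:. The rule gave 104 of the 15423 genes listed in the tables. Of these, 80 are encoded in the nucleus, with 40 of complex I (ND-), 9 of complex III (UQCR-), 16 of complex IV (COX) and 15 of complex V (ATPsyn). The other 24 carry the prefix mt: and are encoded in the mitochondrial genome, with 13 mRNAs, 2 rRNAs and 9 tRNAs. Among the nuclear genes, 21 have a symbol that ends in L, L1 or L2 and marks a gene similar to another subunit gene, and 59 do not. For 17 of the 21 that other gene is also in the set, and for the remaining 4 it has a different symbol: *levy* for *COX6AL* and *COX6AL2*, *cype* for *COX6CL* and *sun* for *ATPsynepsilonL*.

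The study isolated nuclei from adult nephrocytes to profile pericardial and garland cells. It labelled 1 female and 1 male preparation of the same genotype, w1118; Dot-Gal4, UAS-GFP.nls, from flies 5 to 7 days old, with no treatment. Dot-Gal4 drives the nuclear green fluorescent protein reporter, flies were pooled at 50 per tube, and nuclei were stained with Hoechst and sorted by flow cytometry, so that nuclei of tissue dissected along with the nephrocytes could enter both tables. The deposit names the table with more barcodes for female flies and the other for male flies. No column inside either ties it to a labelled sample, so they are referred to by size, as the larger and the smaller matrix, and no test between sexes was made.

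The respiratory chain passes electrons from NADH and succinate to oxygen, and complexes I, III and IV pump protons as they do so. ATP synthase, complex V, uses the resulting proton gradient to make ATP. Most subunits are encoded in the nucleus and imported, whereas a small core is encoded in mitochondrial DNA and transcribed inside the organelle, so that a nuclear preparation can hold mitochondrial transcripts only as carry-over. In flies, many genes of nuclear-encoded subunits have a duplicate, and such duplicates are known for expression in the testis.

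The larger matrix held 7890 barcodes, 19107558 UMIs (unique molecular identifiers, each counting 1 captured RNA molecule) and a median of 1315 UMIs per nucleus, and the smaller held 5978 barcodes, 18130609 UMIs and a median of 1481. The matrices shared 14 barcode sequences. After 1 barcode with under 200 genes was left out, the 13867 nuclei formed 43 clusters with the respiratory genes left out of the clustering, and 21 clusters could be named from marker genes. The 8086 nuclei of the other clusters stayed unnamed. Named nuclei included 1717 fat body-like, 767 body muscle-like, 720 oenocyte-like, 608 male accessory gland-like and 292 heart muscle-like nuclei. Only 99 nuclei were nephrocyte-like, with *sns*, *Cubn*, *Cubn2*, *Amnionless*, *kirre*, *Hand*, *pros* and *kn* raised among their markers. The marker list also held *Klf15*, *mgl* and *Dot*, the gene of the Dot-Gal4 driver, which are not among these. Doublets were not removed. Levels below are UMIs per 1000000 nuclear-encoded UMIs (CPM), with exact Poisson 95% intervals that cover counting error only. Each matrix is 1 preparation, so that a difference between matrices has no replicate.

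Nuclear-encoded subunit RNAs were in nearly every nucleus of both matrices. They summed to 5562 CPM (5528 to 5595) in the larger matrix and to 4848 CPM (4816 to 4880) in the smaller, with medians of 7 and 8 UMIs per nucleus. Only 112 barcodes of the larger matrix (1.42%) and 122 of the smaller (2.04%) had none of these UMIs. Fewer nuclei of a type and less RNA per nucleus cannot be told apart in sums of this kind.

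The gene with the most UMIs was *ATPsynC*, which encodes the c subunit of the ATP synthase rotor. It gave 9057 UMIs (475 CPM) in the larger matrix and 6114 UMIs (338 CPM) in the smaller, and was seen in 49.1% and 45.6% of their nuclei. In complex V it was followed by *ATPsynbeta*, the catalytic beta subunit, with 3848 and 2983 UMIs, and *ATPsynF* with 3645 and 2638. In complex IV, *COX6B* gave 5540 and 4089 UMIs, *COX4* 3619 and 2832, and *COX7B* 2872 and 2274. The leading genes of complex III were *UQCR-11* with 2419 and 1806 UMIs, *UQCR-Q* with 2187 and 1964, and *UQCR-C2*, a core protein of that complex, with 2141 and 1666. In complex I, which has the most subunits, *ND-49* gave 2689 and 2448 UMIs, *ND-B18* 2628 and 1965, and *ND-MLRQ* 2310 and 1983. These UMI numbers are not divided by transcript length and give no order of transcript abundance between genes.

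A few subunit genes without the L suffix gave almost no UMIs. *ND-MNLL* gave 11 in both matrices together, and 100% of its exon bases lie within a gene on the same strand, *CG45089*, so that reads from the pair cannot be told apart. *ND-B8* gave 1 UMI in the larger matrix and 36 in the smaller. *ND-AGGG* gave 134 and 136. In the reference gene models, 8 of the 80 nuclear genes share exon bases with another gene on the same strand, among them *COX6AL2* (67.0% of its exon bases) and *ND-MWFE* (15.2%), and their counts carry the same uncertainty.

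The 59 genes without the L suffix tended to higher levels in the larger matrix, and the 21 L-suffixed genes to lower ones. For 36 of the 59 the level was higher in the larger matrix beyond the counting interval of the ratio, for 2 it was lower (*ND-13A*, *ND-B8*), and for 21 the interval held 1, with a median ratio of 1.16. By complex, 16 of 34 genes of complex I, 4 of 6 of complex III, 7 of 8 of complex IV and 9 of 11 of complex V were higher. Over the 8700 nuclear genes with at least 100 UMIs, 36.0% were higher in the larger matrix and 29.1% were lower, with a median ratio of 1.05. None of the 21 L-suffixed genes was higher in the larger matrix and 19 were lower, with a median ratio of 0.0486. Several of the 21 gave under 100 UMIs in both matrices together, such as *ND-49L* with 15, *ND-24L* with 28 and *ND-20L* with 47. The shares over the 8700 genes are thus not from genes of like counts.

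**Figure D1:**
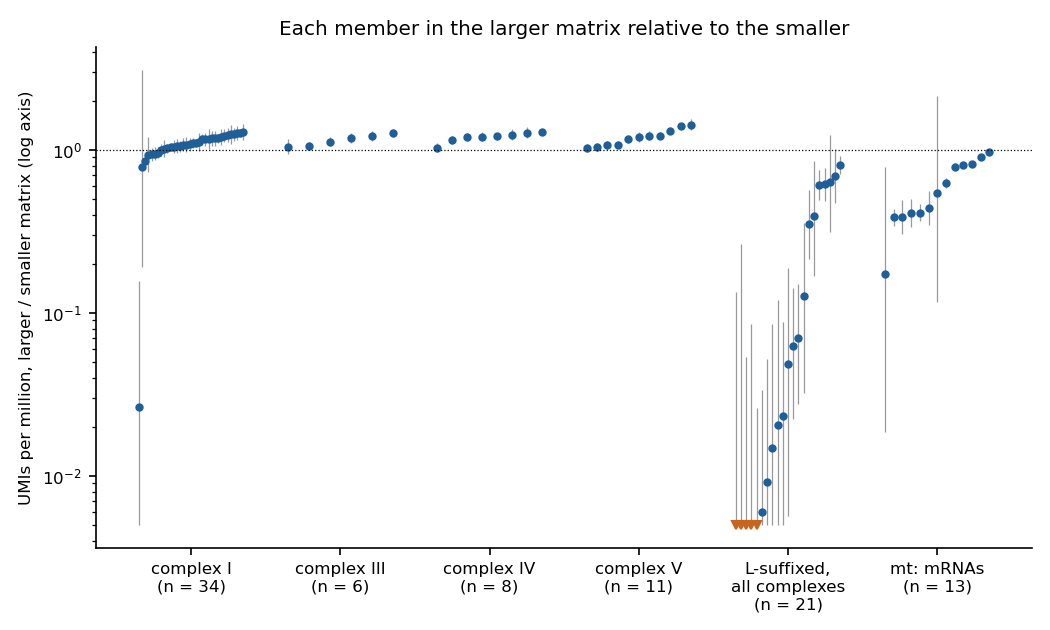
Ratio of the CPM in the larger matrix to that in the smaller for each nuclear-encoded gene (log axis), with 95% counting intervals cut at 0.005 and triangles for genes with 0 UMIs in the larger matrix. Genes without the L suffix have a median of 1.16, with *ND-B8* far below at 0.0263, and 19 of 21 L-suffixed genes lie below 1 beyond their intervals.

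The difference in genes without the L suffix was also seen within several classes of nuclei. Among the 10 classes with at least 20 nuclei in each matrix, their summed level was higher in the larger matrix beyond the interval in 6, and the interval held 1 in the other 4. In fat body-like nuclei it was 5268 CPM against 3780, a ratio of 1.39 (1.34 to 1.45), and in Malpighian principal-like nuclei 7374 against 4988, a ratio of 1.48 (1.40 to 1.56). Both classes, and the oenocyte-like and trachea-like ones, were made in part of different clusters in the matrices. The larger matrix alone held 121 nuclei of the Malpighian principal-like cluster led by *SPR*, 350 of the fat body-like cluster led by *asRNA:CR45601* and 263 of the oenocyte-like cluster led by *asRNA:CR44035*. It also held 627 of the 630 nuclei of the fat body-like cluster led by *Yp2* and 421 of the 422 of the trachea-like cluster led by *CG9184*, while the smaller held 726 of the 737 of the fat body-like cluster led by *Cyp12d1-d*. The next leading genes of the cluster led by *Yp2* were *Yp1* and *tj*. It met the naming rule, but whether all its nuclei are fat body was not tested. In the other Malpighian principal-like cluster, led by *CG7084*, the levels were 5113 CPM (4848 to 5388) and 4988 CPM (4751 to 5234), and in the other oenocyte-like cluster, led by *Sgp*, 4502 CPM (4349 to 4659) and 4187 CPM (4092 to 4283). In body muscle-like nuclei the levels were 5545 and 4509 CPM, in heart muscle-like nuclei 5632 and 4586, in hemocyte-like nuclei 4809 and 4095, and in oenocyte-like nuclei 4437 and 4187. Midgut enterocyte-like nuclei had 5113 and 5332 CPM, with a ratio interval of 0.883 to 1.04. Depth per nucleus moved with this level too: it went from 6044 CPM in larger-matrix nuclei of 500 up to 1000 UMIs to 5057 in those of 5000 UMIs or more, and from 6041 to 4375 in the smaller matrix. The part of depth in the differences between classes was not tested.

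Across the 43 clusters the summed level of the 59 genes ran from 3151 CPM (3012 to 3295) to 10328 CPM (10109 to 10552), a 3.28-fold range around a median of 4907. The lowest cluster was unnamed and led by *CG18268* and *Ets96B*, and the highest was unnamed and led by *CG43134* and *NPF*, the neuropeptide F gene. The lowest had 3228 CPM in the larger matrix and 3059 in the smaller, and the highest 10278 and 10944, with overlapping intervals in each. Among named clusters, the male accessory gland-like cluster led by *Mst57Db* had 8451 CPM and the Malpighian principal-like cluster led by *SPR* 8163 CPM. Nephrocyte-like nuclei had 4387 CPM in the larger matrix and 3871 in the smaller. The complexes moved together from cluster to cluster, with Spearman correlations between 0.90 and 0.96 for each pair of complexes over the 43 clusters, which share the 2 libraries and their depth. Between the level and the median UMIs per nucleus of a cluster the correlation was -0.13.

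**Figure D2:**
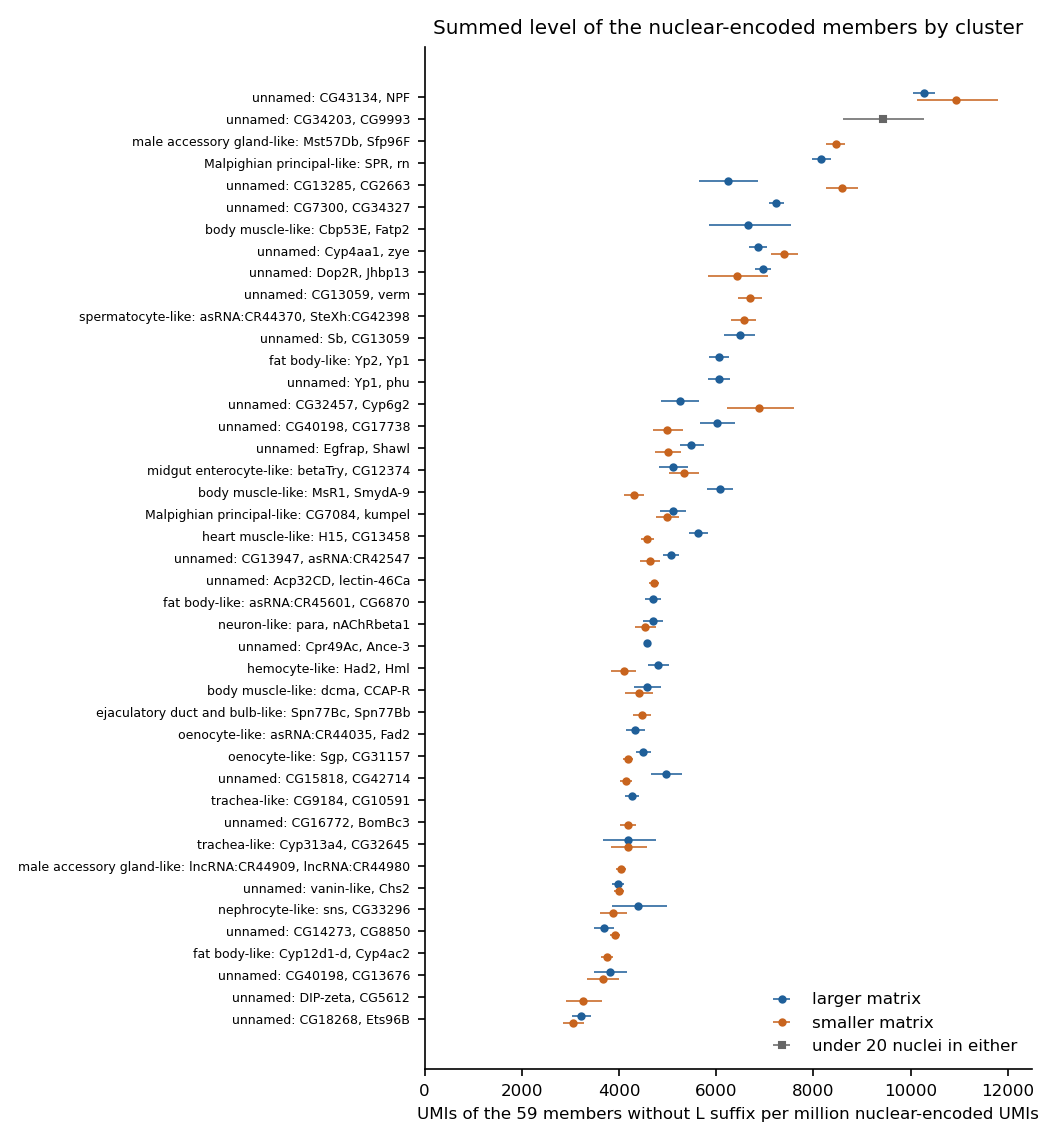
Summed level of the 59 nuclear genes without the L suffix in each of the 43 clusters, in CPM, for the larger and the smaller matrix, with 95% counting intervals. A matrix with under 20 nuclei of a cluster has no point there, and a grey square marks a cluster with under 20 nuclei in each matrix. Clusters range from 3151 to 10328 CPM, with the cluster led by *CG43134* and *NPF* at the top in both matrices.

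Classes were compared on counts summed per class and matrix, 20 sums in all, by edgeR's quasi-likelihood test with the matrix as a replicate block, each class against the mean of the other 9. Adjusted p-values are Benjamini-Hochberg values over the 6045 genes tested, and genes with a value under 0.05 are called. The 2 sums of a class come from 2 preparations, and the block takes out the difference that the matrices share. The p-values rest on what is left, the departures of single classes from that shared difference, pooled over the 10 classes. They do not measure the spread between replicate preparations. Of the 80 nuclear genes, 59 passed the filter on low counts. Those lost were *ND-AGGG*, *ND-B8*, *ND-MNLL* and 18 L-suffixed genes, and *COX6AL*, *COX7AL2* and *UQCR-11L* were the L-suffixed genes that passed.

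Heart muscle-like nuclei had the most respiratory genes called, but their number depended on the scaling. With TMM scaling, 24 of the 59 were called higher and none lower, beside 14.0% and 2.89% of all genes. The 24 were spread over the complexes, with 10 of 31 in complex I, 3 of 7 in complex III, 5 of 10 in complex IV and 6 of 11 in complex V. The median log2 fold change was 0.66 over the 59 and -0.03 over all genes. With library sizes alone only 2 of the 59 were called higher, *COX7AL2* and *ND-B14*, beside 8.83% of all genes higher and 24.4% lower, and the medians were 0.11 over the 59 and -0.56 over all genes. The 56 tested genes without the L suffix had medians of 0.66 under TMM and 0.11 under library sizes, above the median of all genes by 0.69 and by 0.67. The TMM factors of the heart muscle-like sums were 0.679 and 0.730, below those of every other class, and 10 genes, led by *lncRNA:Hsromega*, held 17.0% and 15.7% of their UMIs. Without TMM factors, all genes without the L suffix summed to 5632 and 4586 CPM in these nuclei. Over all barcodes of the larger and smaller matrix the sums were 5516 and 4729 CPM.

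*COX7AL2*, a gene similar to the cytochrome c oxidase subunit gene *COX7A*, was the called gene with the largest fold change in heart muscle-like nuclei. It gave 23 UMIs there in the larger matrix, 40.4 CPM (25.6 to 60.6), and 35 UMIs in the smaller, 34.7 CPM (24.1 to 48.2). In the other 9 classes the highest level was 8.48 CPM in the larger matrix and 6.29 CPM in the smaller, both in body muscle-like nuclei, so that the groups did not overlap. Against all other nuclei of the same matrix the ratios were 25.8 (14.2 to 46.1) and 16.4 (10.0 to 26.9). These 58 UMIs were 47.2% of the 123 UMIs of the gene. Its log2 fold change was 6.03 (SE 0.57, edgeR adjusted p = 3.21e-07), but it depends on the prior count, since several of the other classes had 0 UMIs. After each nucleus was thinned to 500 UMIs, 2 of 130 (1.54%) and 6 of 162 (3.70%) heart muscle-like nuclei had a UMI of the gene. The shares were 0.744% and 0.549% in body muscle-like nuclei, against 0 of 386 and 0 of 334 oenocyte-like nuclei, which allow shares of up to 0.777% and 0.898%.

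The other genes called in heart muscle-like nuclei differed less. *ND-B14*, an accessory subunit of complex I, was at 80.8 and 69.3 CPM in the larger and smaller matrix, against medians of 54.3 and 45.6 CPM in the other classes. Its log2 fold change was 1.14 (SE 0.21, edgeR adjusted p = 0.00045), and in the larger matrix nephrocyte-like nuclei were higher, at 92.2 CPM from 5 UMIs. *ND-23*, an iron-sulfur subunit of complex I, was at 28.1 and 16.8 CPM, and its log2 fold change of 1.55 rested in part on the nephrocyte-like nuclei, where it had 0 UMIs. Against all other nuclei its ratios were 1.19 and 0.818, with both intervals holding 1. Next came *ND-B14.5B* at 1.11 and *ND-MWFE* at 1.06. The smallest log2 fold changes among the 24 were 0.64 for *COX6B*, 0.67 for *ATPsynF*, 0.68 for *ATPsynC*, 0.73 for *ND-B14.5A* and 0.76 for *UQCR-C1*. Under library sizes these 5, *ND-23*, *ND-B14.5B* and *ND-MWFE* did not pass the test, with the lowest log2 fold change at 0.08 for *COX6B*.

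**Figure D3:**
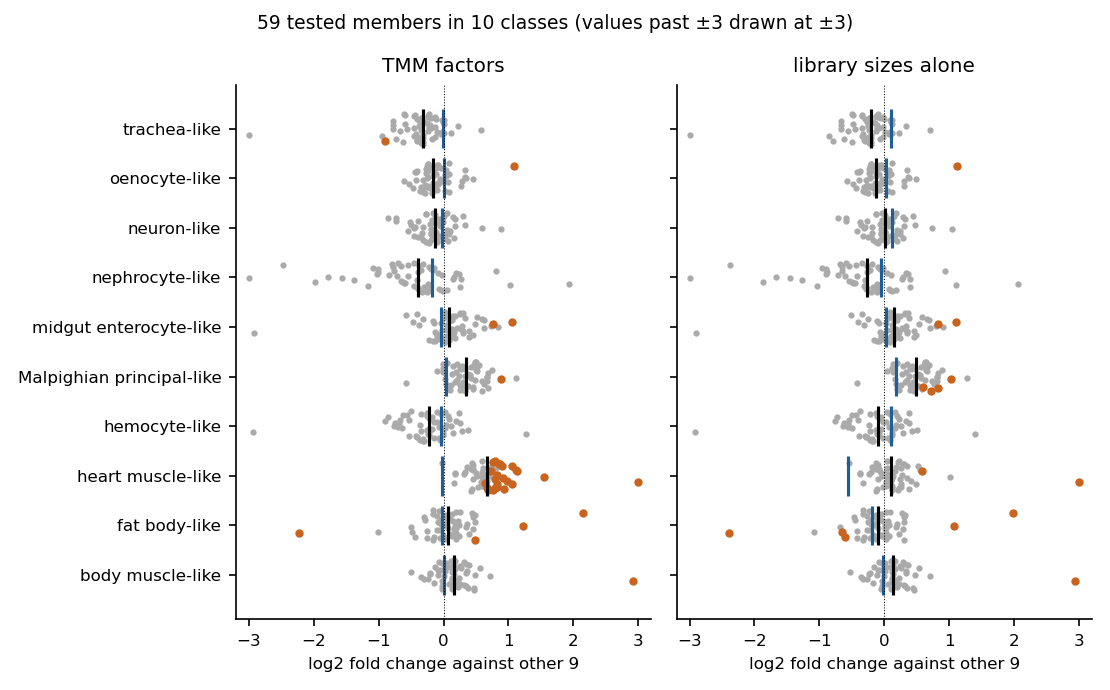
Log2 fold change (edgeR) of the 59 tested nuclear respiratory genes in each of 10 classes against the mean of the other 9, with called genes in orange, the median of the respiratory genes as a black bar and that of all 6045 genes as a blue bar; values past 3 or -3 are drawn at the edge. The left panel uses TMM factors and the right panel library sizes alone, and heart muscle-like nuclei have 24 called genes in the left panel and 2 in the right.

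In fat body-like nuclei 3 respiratory genes were called higher and 1 lower, beside 20.5% and 19.4% of all genes. *UQCR-11L*, a gene similar to the complex III subunit gene *UQCR-11*, gave 84 UMIs in the larger matrix, 64.5 CPM (51.5 to 79.9), and 67 UMIs in the smaller, 65.0 CPM (50.3 to 82.5). The other classes ran from 0 to 35.2 CPM and from 0 to 39.6 CPM, and did not reach those values. The log2 fold change was 2.15 (SE 0.27, edgeR adjusted p = 2.16e-06). After thinning to 500 UMIs, 3.04% and 1.65% of fat body-like nuclei had a UMI of the gene, against 0.777% and 3.29% of oenocyte-like and 0.993% and 0.824% of body muscle-like nuclei. In the smaller matrix the oenocyte-like share was thus above the fat body-like one, against the order of the CPM, and no order is read from these shares. With library sizes 2 were called higher and 3 lower, beside 16.6% and 22.9% of all genes. *ND-23* was called at 1.23 with TMM, again against classes that include the nephrocyte-like nuclei at 0, and *ATPsynC* at 0.48, with 577 and 383 CPM, which did not pass with library sizes. *COX6AL*, similar to *levy* (cytochrome c oxidase subunit 6A), fell to 0 and 3 UMIs, beside medians of 5.09 and 9.90 CPM in the other classes.

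*UQCR-11L* was also called in oenocyte-like nuclei, where 1 respiratory gene was called higher and none lower, beside 4.86% and 0.910% of all genes. It was at 35.2 CPM (25.3 to 47.8) and 39.6 CPM (30.9 to 50.1), the second highest level of the 10 classes after the fat body-like nuclei in both matrices. The log2 fold change was 1.09 (SE 0.29, edgeR adjusted p = 0.029). In nephrocyte-like nuclei it had 0 and 1 UMI, too few to separate them from the other classes in the test.

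Body muscle-like nuclei, which hold contractile muscle markers, had 1 respiratory gene called higher and none lower, beside 7.38% and 0.629% of all genes. The gene was *COX7AL2*, with 5 and 4 UMIs (8.48 and 6.29 CPM) and a log2 fold change of 2.92 (SE 0.82, edgeR adjusted p = 0.035). Against all other nuclei its ratio was 3.33 (1.03 to 8.34) in the larger matrix and 1.64 (0.433 to 4.39) in the smaller. The median log2 fold change of the 59 genes was 0.15, beside 0.01 over all genes. The class joined clusters of 487 nuclei led by *MsR1*, 246 led by *dcma*, *CCAP-R* and *bin*, and 34 led by *Cbp53E*. The genes without the L suffix summed to 5111, 4499 and 7165 CPM in them. Whether all these nuclei are body muscle was not tested.

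The other classes had at most 2 genes called. In midgut enterocyte-like nuclei, *ND-B14.5A* (99.3 and 151 CPM, log2 fold change 1.05, SE 0.25) and *ND-ACP*, the mitochondrial acyl carrier protein (190 and 147 CPM, log2 fold change 0.77, SE 0.25), were higher and no gene was lower, beside 7.23% and 4.43% of all genes, and both exceeded the other 9 classes in both matrices. In Malpighian principal-like nuclei *ND-18* was higher (54.8 and 36.0 CPM, log2 fold change 0.88, SE 0.26, edgeR adjusted p = 0.0498) and no gene was lower, beside 5.03% and 1.26% of all genes. With library sizes *ATPsynB*, *ATPsynbeta* and *ATPsynO* were higher too, beside 7.01% of all genes higher and 0.778% lower. With TMM 18 of the 59, *ND-18* included, had an unadjusted p under 0.05 in that direction, beside 11.6% of all genes, and the median log2 fold change was 0.35. Without the clusters led by *SPR* and *Yp2* that median was 0.07, no gene was called, and 2 had an unadjusted p under 0.05 and were higher, beside 11.0% of all genes. In trachea-like nuclei *ATPsynE* was lower (65.9 and 48.5 CPM, log2 fold change -0.90, SE 0.26) and no gene was higher, beside 1.74% and 6.32% of all genes.

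In hemocyte-like, nephrocyte-like and neuron-like nuclei no respiratory gene was called by edgeR or DESeq2. For the hemocyte-like class, 6 genes had an unadjusted p under 0.05 with edgeR and 4 with DESeq2, all lower, beside 4.91% and 4.50% of all genes. Of all genes, edgeR called 3.26% higher and 0.529% lower there. For the nephrocyte-like class the numbers were 8 and 5, all lower, beside 8.90% and 6.53% of all genes. In that class edgeR called 4.30% of all genes higher and 1.29% lower, and the median log2 fold change was -0.39 over the 59 genes and -0.17 over all genes. The class held 38 and 61 nuclei, the fewest of the 10 classes over both matrices. For the neuron-like class 1 gene had an unadjusted p under 0.05 with each tool, lower in both, beside 3.66% and 2.75% of all genes, and edgeR called 7.41% of all genes higher and 0.265% lower.

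A further 36 genes of oxidative metabolism, listed apart from the symbol rule, were followed in the same fits, and 29 were tested. In fat body-like nuclei 8 rose and 1 fell, beside 20.5% and 19.4% of all genes. Of the tricarboxylic acid cycle, 5 of 10 genes rose: *ScsbetaA* by 1.69 on the log2 scale, *kdn* (citrate synthase) by 1.13, *Scsalpha1* by 1.02, *Ogdh* by 0.98 and *Idh3a* by 0.78. Also higher were *Cyt-c-p*, the electron carrier cytochrome c, by 0.78, *sesB*, an adenine nucleotide translocase, by 0.76 and *srl*, the fly PGC-1 coactivator, by 0.97. The *srl* counts were uneven, with 113 UMIs (86.8 CPM) in the larger matrix and 17 UMIs (16.5 CPM) in the smaller. *SdhA*, the flavoprotein subunit of complex II, fell by 1.36 on the log2 scale. The same 9 genes were called with library sizes, beside 16.6% and 22.9%. In heart muscle-like nuclei 14 were called higher with TMM and none lower, beside 14.0% and 2.89% of all genes, among them all 3 further genes of complex III (*RFeSP*, *Cyt-c1*, *ox*) and 6 of 10 of the tricarboxylic acid cycle. With library sizes only *Idh3g* (1.71), *kdn* (1.02), *Ogdh* (0.88) and *sesB* (0.60) were called higher, and *ScsbetaA* (-0.58) and *Scsalpha1* (-0.71) were called lower, beside 8.83% and 24.4% of all genes. With TMM, at most 2 were called in each other class, beside the shares of all genes given above for each class. *SdhA* (1.11) was higher in Malpighian principal-like nuclei and *mAcon1* (1.56) in midgut enterocyte-like nuclei. *kdn* (-1.50) was lower in nephrocyte-like nuclei, *Idh3a* (-0.83) and *Ogdh* (-0.90) in trachea-like nuclei, and *Ogdh* in hemocyte-like nuclei. With library sizes 3 were higher in midgut enterocyte-like nuclei, *mAcon1* (1.62), *kdn* (0.67) and *Idh3a* (0.61). The share of all genes called there with library sizes is not given here. *blw* of complex V (0.67) joined *SdhA* in Malpighian principal-like nuclei, beside 7.01% of all genes higher.

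The L-suffixed genes differed from the rest in gene structure as well. In the reference annotation none of the 21 lies on the X chromosome, whereas 12 of the 59 others do, and 5 of the 21 have 1 exon in every transcript, against 0 of the 59. Their 18 different partner genes include 5 on the X chromosome. The exons of a gene together covered a median of 647 bases for the 21 and 842 bases for the 59. In the larger matrix *ND-24L*, *ND-49L*, *ND-B14.5AL*, *UQCR-14L* and *COX7AL* had 0 UMIs, while the smaller matrix gave 28, 15, 43, 67 and 135.

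The smaller matrix held 53 spermatocyte-like nuclei, and the larger none. Their name rests on the Y-linked fertility genes *kl-2*, *kl-3*, *kl-5*, *ORY*, *CCY*, *Ppr-Y* and *WDY* and on *can*, *sa* and *aly*, which encode or control parts of the spermatocyte transcription program. The marker list also held *ARY*, *mia*, *nht*, *comr*, *topi*, *fzo*, *Rbp4* and *bol*, which are not among these. All 18 markers of the list summed to 7548 CPM in the 53 nuclei, 692 CPM in the other nuclei of the smaller matrix and 581 CPM in the larger. The cells are in 1 matrix only, so that what follows is a description with counting intervals and no test. A gene is counted as higher if it had at least 10 UMIs in these nuclei and at least 4 times the CPM of the other nuclei of the smaller matrix, which held for 8.00% of 14908 genes.

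By this rule 11 of the 17 duplicates with a partner in the set were higher, and with *COX6AL2* and *COX6CL* 13 of the 21 L-suffixed genes. None of the 59 genes without the suffix met it. The median ratio of the 17 was 15.5, and that of the 59 was 1.55. For 18 of the 21 the ratio exceeded 1 beyond its interval, as it did for 30 of the 59. This held for 28.5% of the 14908 genes, whose median ratio was 1.17, and for 22.3% of the 7195 genes with at least 100 UMIs in that matrix, whose median was 1.04. The 18 partner genes had a median ratio of 1.11, from 0.556 to 2.93.

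*ND-20L*, similar to the complex I subunit gene *ND-20*, had the highest ratio. It gave 24 UMIs in 15 of the 53 nuclei, 61.8 CPM (39.6 to 92.0), 22 UMIs in the 5925 other nuclei of the smaller matrix, 1.24 CPM, and 1 UMI in the larger matrix. The ratio was 49.7 (26.7 to 92.9), and the 53 nuclei held 51.1% of the 47 UMIs of the gene. Its partner *ND-20* was at 38.6 CPM (21.6 to 63.7) in the same nuclei and at 35.0 CPM in the others.

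Duplicates of the other complexes were raised as well. In complex V, *ATPsynCF6L* was at 77.3 CPM (52.1 to 110) against 2.89 CPM in the other nuclei, a ratio of 26.8, and its partner *ATPsynCF6* was at 255 and 154 CPM. *ATPsynbetaL*, similar to the catalytic beta subunit gene, had a ratio of 22.8 from 10 UMIs, and *ATPsynGL* 19.2. In complex IV, *COX6AL2* had a ratio of 24.6, *COX6CL* 20.2, *COX5BL* 18.2, *COX7AL* 15.9, *COX7CL* 11.0 and *COX4L* 9.73. *COX7AL* gave 35 UMIs in 22 nuclei, 90.1 CPM (62.8 to 125), against 5.66 CPM elsewhere in the smaller matrix, and its partner *COX7A* was at 147 and 108 CPM. In complexes I and III, *ND-24L* had a ratio of 34.2, *UQCR-14L* 15.5 and *ND-51L1* 5.94. *ND-49L* had a ratio of 39.8 but only 7 UMIs.

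Not every L-suffixed gene was raised in these nuclei. *UQCR-11L* and *COX7AL2*, the genes called in fat body-like and heart muscle-like nuclei, had ratios of 1.27 and 1.32, with intervals that held 1, and *ND-51L2* had 1.98. *COX6AL* had a ratio of 3.68 (2.14 to 5.94), just under the rule. *UQCR-6.4L*, *ND-B14.5AL* and *ATPsynepsilonL* had ratios of 5.20, 4.67 and 6.50 from 4, 4 and 3 UMIs. Of the 41 UMIs of *UQCR-6.4L*, 15 were in male accessory gland-like nuclei.

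**Figure D4:**
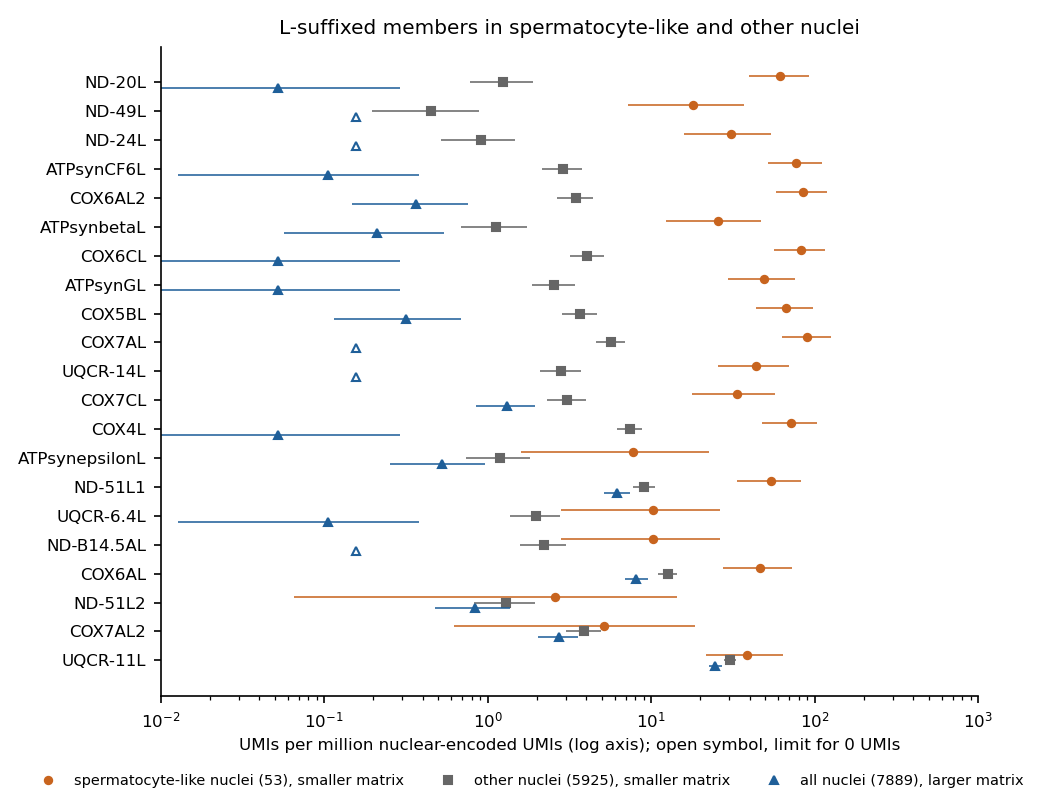
Level of each L-suffixed gene in CPM (log axis) in the 53 spermatocyte-like nuclei, in the other 5925 nuclei of the smaller matrix and in all nuclei of the larger, with 95% counting intervals, and open symbols at the limit that 0 UMIs allow. Genes are ordered by the ratio between the first 2 groups, from *ND-20L* at 49.7 to *UQCR-11L* at 1.27.

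Outside these 53 nuclei the duplicates were low but not absent from the smaller matrix. Summed over the 11 duplicates that met the rule, the level was 605 CPM (530 to 688) in the spermatocyte-like nuclei, 40.4 CPM (37.5 to 43.5) in the other nuclei of the smaller matrix and 8.29 CPM (7.05 to 9.69) in the larger. The 11 were picked for their counts and ratios in these same 53 nuclei. The first sum is therefore high by the rule itself and adds no support to it. Male accessory gland-like nuclei had 82.3 CPM, with 171 CPM in the cluster led by *Mst57Db* and 40.2 CPM in the other gland-like cluster. Oenocyte-like nuclei of the smaller matrix, a somatic class, had 33.4 CPM (25.4 to 43.1), close to the 33.1 CPM of all nuclei that were neither gland-like nor spermatocyte-like. By share of nuclei, *ATPsynCF6L* had a UMI in 37.7% of spermatocyte-like nuclei (median 3519 UMIs per nucleus) and in 0.299% of oenocyte-like nuclei (median 2414). After thinning to 500 UMIs per nucleus the shares were 7.55% and 0 of 334 nuclei, which allows up to 0.898%. Of the spermatocyte markers, the larger matrix held 15 of 18 at 581 CPM, beside its 8.29 CPM of the duplicates. The part of free RNA in the low levels was not tested.

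*COX6AL* followed another pattern. In the unnamed cluster led by *Cyp4aa1*, *zye* and *Fatp2* it gave 63 UMIs in the larger matrix, 84.8 CPM, and 47 UMIs in the smaller, 121 CPM. Against the other nuclei of the same matrix the ratios were 16.9 (12.1 to 23.5) and 11.0 (7.83 to 15.2), and the cluster held 110 of the 396 UMIs of the gene. The gene was left out of the clustering. The same cluster was above the median of all clusters for the 59 genes without the suffix, at 6855 and 7398 CPM. After thinning, 4.12% and 5.86% of its nuclei had a *COX6AL* UMI, against 0.259% and 0.299% of oenocyte-like nuclei.

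Mitochondrially encoded transcripts were treated apart as carry-over into the nuclei. They made up 0.250% (0.248 to 0.252) of UMIs in the larger matrix and 0.348% (0.345 to 0.351) in the smaller. Of all barcodes, 9.34% had no mt: UMI, 11.0% in the larger matrix and 7.11% in the smaller, and 23 exceeded 5%. The share was higher in nuclei of few UMIs, at 0.365% and 0.644% for 500 up to 1000 UMIs and 0.204% and 0.285% for 5000 or more.

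The mt: UMIs came mainly from the large ribosomal RNA and the cytochrome c oxidase mRNAs. *mt:lrRNA* gave 8409 and 17556 UMIs in the larger and smaller matrix, *mt:CoIII* 10048 and 11714, *mt:CoI* 9609 and 10038 and *mt:CoII* 9084 and 8914. *mt:Cyt-b*, of complex III, gave 5528 and 6416, and *mt:ATPase6*, of complex V, 3047 and 3657. The complex I mRNAs were less frequent, with 1144 and 1734 for *mt:ND4*, 426 and 979 for *mt:ND5*, 406 and 996 for *mt:ND1*, 144 and 332 for *mt:ND3*, 98 and 240 for *mt:ND6* and 99 and 213 for *mt:ND2*. The small ribosomal RNA *mt:srRNA* gave 129 and 245, and *mt:ND4L* and *mt:ATPase8* at most 11. Of the 9 tRNAs, *mt:tRNA:Leu-TAG* and *mt:tRNA:Lys-CTT* had 0 UMIs in the larger matrix, with 13 and 1 in the smaller, and *mt:tRNA:Asn-GTT* and *mt:tRNA:Val-TAC* had 1 in the larger and 0 in the smaller. Of the 13 mRNAs 12 were lower in the larger matrix beyond the counting interval of the ratio, and for 1 the interval held 1. The UMI numbers per gene include the 1 barcode with under 200 genes, which gave 421 of the mt: UMIs of the larger matrix, and without it the count was again 12 of 13. The mt: UMIs other than *mt:lrRNA* made up 0.207% of UMIs in the larger matrix and 0.251% in the smaller. Without male accessory gland-like nuclei the smaller matrix was at 0.206%, so the count of 12 is not read as a shift shared by all classes.

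The make-up of the mt: UMIs differed between the matrices as well as their share. *mt:lrRNA* was 17.3% of mt: UMIs in the larger matrix and 27.8% in the smaller, and its share was lower in the larger matrix in 10 of 10 classes. The total mt: share was lower in the larger matrix beyond the interval in 6 of the 10, higher in 1 (fat body-like, 0.247% against 0.215%) and the interval held 1 in 3. The fat body-like value was not of 1 kind: of its clusters, that led by *Yp2* was at 0.435% and that led by *asRNA:CR45601* at 0.115%, both in the larger matrix but for 3 nuclei, and that led by *Cyp12d1-d*, nearly all in the smaller, at 0.213%, between them.

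Nuclear and mitochondrial RNAs of the chain did not follow each other in each class. Heart muscle-like nuclei had the lowest mt: share of the 10 classes in both matrices, 0.124% and 0.191%. Their level of the genes without the L suffix was 5632 and 4586 CPM, near the 5516 and 4729 CPM over all barcodes. The cluster led by *Mst57Db* had both a high nuclear level and the highest mt: share among named clusters, 1.43%, and without all gland-like nuclei the smaller matrix was at 0.296%. The cluster led by *CG43134* and *NPF* had 0.659%. Over the 43 clusters the nuclear level and the mt: share had a Spearman correlation of 0.54. The part of carry-over of cytoplasmic RNA in the nuclear-encoded levels was not tested.

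**Figure D5:**
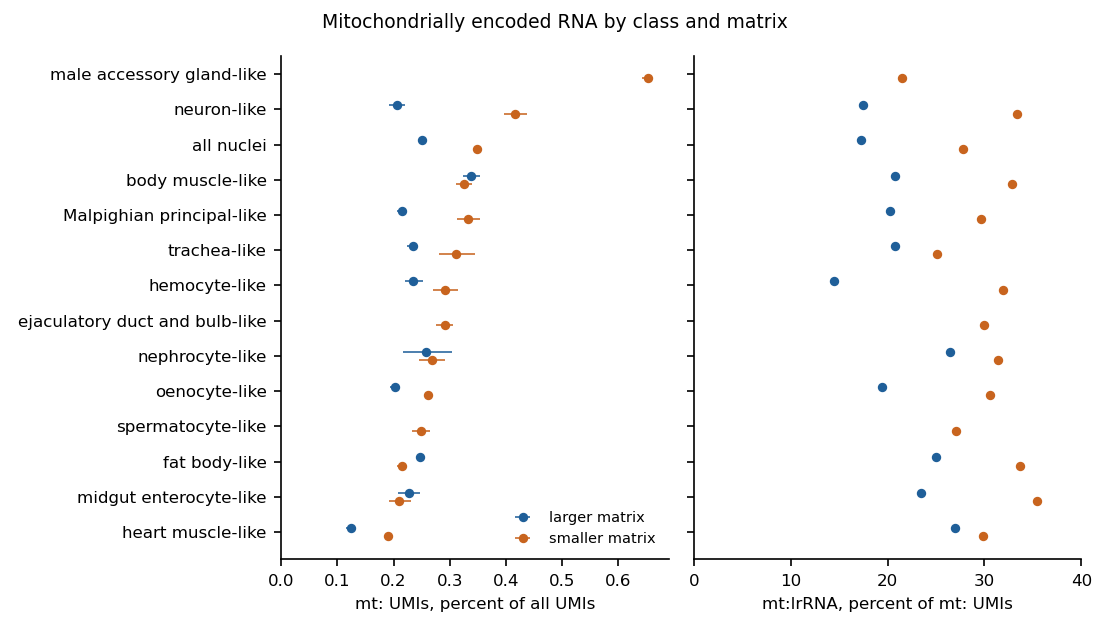
Share of UMIs from mt: genes (left, percent of all UMIs, with 95% counting intervals) and share of *mt:lrRNA* among mt: UMIs (right, percent) by class in the larger and the smaller matrix. Heart muscle-like nuclei have the lowest mt: share, at 0.124% and 0.191%, and the *mt:lrRNA* share is lower in the larger matrix in each class held by both.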

How the data were processed

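Nuclei were profiled by droplet single-nucleus RNA sequencing (10x Genomics). The deposited tables hold whole-number UMI counts per gene and barcode that the authors made with Cell Ranger and did not normalize; for its version, the genome build and the annotation, the sources used here name none. The sources differ on the kit version and the rearing temperature. Per the authors, Seurat and Harmony were then used; the tables were taken before those steps. Every value here was computed from the counts.

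Nuclei with at least 200 genes were scaled to 10000 UMIs, log-transformed and clustered with scanpy 1.11.5 (2000 variable genes, 30 components, 15 neighbours, Leiden resolution 2). The respiratory genes and the further pathway genes were left out of the clustering, no Harmony correction was made and no doublet caller was run. A cluster was named if at least 3 markers with 10 UMIs or more had at least 3 times the level of the other nuclei; a stellate cell name was set aside after the values were seen, because *SecCl*, *ClC-a* and *Drip* were not raised. Sums per class and matrix were fitted with edgeR 4.0.16 in R 4.3.3 (TMM, filterByExpr, matrix as a replicate block because the sums of a matrix come from 1 preparation), and with DESeq2 1.42.0 as an alternative. Contrasts for 4 classes were planned, and those for the other 6 were added after the data were seen. In counts simulated for the body muscle-like contrast (5445 genes), edgeR recovered 32 of 100 genes changed 2-fold and 77 of 100 changed 4-fold, with 7 false calls. The simulated classes shared 1 mean profile and a fixed dispersion, apart from 200 genes changed in 1 class. The real classes differ in many more genes, so these rates need not hold for them. Intervals are exact Poisson or conditional binomial at 95%.

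Genes named are the 3 of each complex with the most UMIs, those with 0 UMIs in a matrix, every L-suffixed gene with at least 10 UMIs, the 5 largest and 5 smallest log2 fold changes called and of 1 sign in both matrices, genes with most of their UMIs in 1 class, and mt: genes with at least 100 UMIs; *ND-MNLL*, *ND-B8*, *ND-AGGG*, *ND-13A* and the 2 short mt: mRNAs were named after their values were seen. The respiratory genes and all lists were chosen with earlier results of these data known. Gene models are from the Ensembl BDGP6.54 annotation and served only for structure and chromosome. Alternatives are described at the end.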

Additional observations from a re-analysis of the deposited data

Results flagged for a closer look

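The 1 barcode of the larger matrix with under 200 genes was left out of the clusters, the classes and the mt: shares by class and matrix, though its UMIs are in the totals per gene and matrix, and 421 of its 531 UMIs (79.3%) were from mt: genes, over 102 genes in all. It was singled out because it lies outside the nuclei used and holds many mt: UMIs. The median was 3 per barcode in the larger matrix, and among the nuclei used the highest mt: share was 54.4%.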

How the results depend on the processing

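The 24 respiratory genes called in heart muscle-like nuclei were 19 to 33 under the other alternatives and 2 with library sizes alone. Small counts moved more. The 1 gene in Malpighian principal-like nuclei was 0 with DESeq2 size factors, with DESeq2, without the filter, without the replicate block, without mt: rows, at Leiden resolution 1 and without the clusters led by *Yp2* and *SPR*, and 4 with library sizes. The 1 gene in body muscle-like nuclei was 0 with DESeq2, with no replicate block, at resolution 1, with the respiratory genes kept in the clustering and in nuclei of at most 5% mt: UMIs. The 1 gene in oenocyte-like nuclei was 0 with DESeq2, with no replicate block and at most 5% mt: UMIs. The 2 in midgut enterocyte-like nuclei were 1 without the filter or the replicate block and 0 with the genes kept in the clustering or at most 5% mt: UMIs. In fat body-like nuclei the 3 higher were 6 at resolution 1 and 5 with the genes kept or at most 5% mt: UMIs, and the 1 lower was 0 with no replicate block, at resolution 1, with the genes kept and without those clusters, and 3 with library sizes. The 1 lower in trachea-like nuclei was 0 without the filter, with no replicate block, with the genes kept, at most 5% mt: UMIs, with library sizes and without those clusters. The 0 lower in nephrocyte-like nuclei became 1 with no replicate block, 2 at resolution 1, and 1 with the genes kept or at most 5% mt: UMIs. The causes were not tested. The fits with library sizes and without those clusters were added after the data were seen.

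Of the named genes' fits, 148 stayed on the same side of the threshold, 51 were no longer called and none changed sign. *COX7AL2* and *ND-B14* in heart muscle-like nuclei and *UQCR-11L* in fat body-like nuclei were called under all 10 alternatives. From 1 matrix alone, with no test, the median log2 ratio of the respiratory genes was 0.90 and 0.55 in heart muscle-like nuclei, 0.17 and 0.10 in body muscle-like, 0.14 and 0.01 in fat body-like, -0.20 and -0.14 in oenocyte-like and -0.18 and -0.32 in hemocyte-like nuclei, in the larger and the smaller matrix. In midgut enterocyte-like nuclei it was -0.09 and 0.39.

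The mt: share in the larger and the smaller matrix was 0.236% and 0.324% in nuclei of at least 1000 UMIs, 0.193% and 0.255% as the median over nuclei, 0.206% and 0.250% from mRNAs only, and 0.296% in the smaller matrix without gland-like nuclei. The 11 duplicates higher in spermatocyte-like nuclei were 11 per 1000000 of all UMIs, 10 without the nucleus with the most of their UMIs and 13 with the 4 of other partners. At resolution 1 no cluster was spermatocyte-like and no value could be had, and with the genes kept in the clustering the class held 15 nuclei. The counts of 36 and 19 genes between the matrices stayed the same per 1000000 of all UMIs. With 1 preparation per matrix, differences between matrices have no replicate, and genes with few UMIs in a class were not detectable at this depth.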
